A study of Mus musculus with 12 samples.

Results

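The genes of the ependymal lining and of the motile cilium were followed through 12 RNA sequencing libraries of mouse ventral hippocampus. They were 32 genes chosen by name, of 54532 genes in the deposited count table. Of these, 30 were found under their own symbol and 2, Dnai1 and Dnai2, under the older symbols Dnaic1 and Dnaic2. The 4 groups held 3 libraries each, all labelled wild type. Control mice had no treatment, and CSDS mice were exposed to a stress given in the labels only by that abbreviation, which in this field usually stands for chronic social defeat stress. SSDS-GFP mice were exposed to SSDS, usually subthreshold social defeat stress, and had received AAV8-eGFP. SSDS-shACOT12 mice were exposed to SSDS and carried a hepatic knockdown of ACOT12, an acyl-CoA thioesterase. Both SSDS groups therefore share the stress and a vector given for the liver, and the Control and CSDS groups are not labelled as carrying one. The labels of the table's columns add the letters TBG for both SSDS groups, in this field usually a liver-specific promoter. Strain, sex, age and the source of a replicate (an animal or a pool) are not given in the sources used here, so each p-value covers only the spread among these libraries, and that spread may be technical.

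Ependymal cells are ciliated epithelial cells that line the brain ventricles, including the horn of the lateral ventricle that borders the hippocampus. Each bears a tuft of motile cilia whose beat moves cerebrospinal fluid. A motile cilium has an axoneme, a ring of microtubule doublets around a central apparatus. Outer and inner dynein arms slide the doublets against each other, and radial spokes, the nexin-dynein regulatory complex and the central apparatus turn sliding into a beat. Foxj1 is the transcription factor that switches on this programme, together with factors of the RFX family, which bind X-box sequences. Neurons and astrocytes usually carry a single primary cilium, which lacks the dynein arms but is built by the same intraflagellar transport.

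Promoters were searched for the letters that these factors are known to bind, as the genes belong to the programme described above. RefSeq promoters (GRCm38.p6, 250 bases before to 50 bases after a gene's start) were held for 26 of the 32 genes. Foxj1, Rsph1, Rsph4a, Cfap54, Cfap65 and Rarres2 were not among them. On either strand, the X-box arm GTTGCC stood in the promoters of 12 of these 26 genes (46.2%), against 14.1% of 27025 genes in the table. A paired X-box, GTNNCC followed by GGNNAC with 0 to 3 bases between them, stood in 4 of 26 (15.4%), against 4.38% of all genes. It can overlap the single arm. Pairs of arms that depart from this pattern were neither counted nor capitalised. Examples are gttgctatggcaac in Cfap44, gttgctgtggcaac in Hydin and gttgctcagcaac in the Tekt4 promoter printed below. The forkhead motif GTAAACA stood in the promoters of Ak7, Cfap43 and Mlf1, which are 3 of 26 (11.5%), against 4.05% of all genes. A match describes letters and shows no binding. The 4 promoters with a match to the paired X-box pattern are printed 5′ to 3′ on the gene's strand, with the match in capitals. They lie at chr19:47837312-47837611 (Cfap43, minus strand), chr3:106001448-106001747 (Pifo, minus strand), chr16:16829314-16829613 (Spag6l, minus strand) and chr17:25471340-25471639 (Tekt4, plus strand).
Cfap43: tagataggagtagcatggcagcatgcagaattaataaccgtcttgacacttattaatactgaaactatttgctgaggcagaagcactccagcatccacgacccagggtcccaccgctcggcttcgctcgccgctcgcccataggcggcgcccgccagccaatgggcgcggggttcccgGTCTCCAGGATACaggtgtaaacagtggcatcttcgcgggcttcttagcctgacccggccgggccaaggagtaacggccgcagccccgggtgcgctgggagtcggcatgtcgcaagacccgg
Pifo: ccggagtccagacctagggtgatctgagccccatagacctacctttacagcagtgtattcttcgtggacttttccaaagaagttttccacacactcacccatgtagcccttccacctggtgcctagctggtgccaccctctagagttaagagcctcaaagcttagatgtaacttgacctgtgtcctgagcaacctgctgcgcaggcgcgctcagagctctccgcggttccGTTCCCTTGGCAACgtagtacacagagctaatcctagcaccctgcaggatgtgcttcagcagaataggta
Spag6l: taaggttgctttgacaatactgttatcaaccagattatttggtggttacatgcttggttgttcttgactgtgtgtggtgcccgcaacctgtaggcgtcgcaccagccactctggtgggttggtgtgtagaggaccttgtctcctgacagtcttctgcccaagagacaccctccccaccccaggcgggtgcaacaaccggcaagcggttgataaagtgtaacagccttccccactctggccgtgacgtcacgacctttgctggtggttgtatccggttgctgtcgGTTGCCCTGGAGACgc
Tekt4: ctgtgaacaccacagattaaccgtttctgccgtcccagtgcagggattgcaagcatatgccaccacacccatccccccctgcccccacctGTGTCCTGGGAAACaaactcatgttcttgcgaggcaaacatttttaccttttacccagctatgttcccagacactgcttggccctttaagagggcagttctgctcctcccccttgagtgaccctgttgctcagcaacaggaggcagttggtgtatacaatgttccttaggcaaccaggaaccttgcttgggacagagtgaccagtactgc
The paired X-box began 20 bases before the RefSeq start used for Pifo, 72 bases before that of Cfap43 and 160 bases before that of Tekt4, and 35 bases after that of Spag6l. In Cfap43 the forkhead motif followed it, 55 bases before the start. The starts used for Pifo, Cfap43 and Spag6l lie inside the gene as the count table gives it. The table held a second Pifo promoter at the outer end of the gene, chr3:106014597-106014896, which had none of the 3 motifs.

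Library totals ran from 14656714 to 17694570 counts, and 16915 genes had enough counts to be tested. All 32 ependymal and motile cilia genes were among them. Levels are given as CPM, the count scaled to the TMM-adjusted size of its library, when 1 gene is compared between libraries, and as the authors' FPKM, which also divides by gene length, when genes are compared with each other. The tissue label was checked on 10 hippocampal markers, all tested, whose summed level ran from 1106 CPM in SSDS-GFP 3 to 1649 CPM in SSDS-shACOT12 1. Their mean of log2 CPM minus each gene's own mean was -0.51 in SSDS-GFP 3 and -0.44 in SSDS-shACOT12 2. It lay between -0.19 and 0.42 in the other libraries, with -0.14 in CSDS 3. Summed striatal markers stood at 770 CPM in SSDS-shACOT12 3 and at 133 to 195 CPM in the other libraries. By the same mean they were highest in SSDS-shACOT12 3 (0.82) and SSDS-GFP 3 (0.625). Acot12, the target of the hepatic knockdown, had 3 to 14 counts per library in this brain tissue, which checks nothing about the liver.

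Per length, the cilia genes were lowly expressed. Rsph1, a protein of the radial spoke head, had the highest mean over 12 libraries at 4.09 FPKM. It was followed by Drc1 of the nexin-dynein regulatory complex at 3.52 FPKM, Foxj1 at 2.89 FPKM and Tmem212, an ependymal membrane protein, at 2.78 FPKM. Among outer dynein arm genes, the intermediate chain Dnai1 had 1.57 FPKM, the heavy chain Dnah9 1.18 FPKM, the intermediate chain Dnai2 0.441 FPKM, and the heavy chains Dnah5 and Dnah11 0.320 and 0.0475 FPKM. The inner arm heavy chains Dnah1, Dnah2, Dnah6 and Dnah12 had 0.621, 0.344, 0.119 and 0.0670 FPKM. Heavy chain transcripts are very long, so their reads stand for a lower level per length. Dnah9 had the most reads of all these genes, 3632 counts over the 12 libraries, at a modest level per length. Dnah5 and Dnah2, of nearly the same length, had 966 and 999 counts.

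Ccdc39 and Ccdc40, which form the molecular ruler that spaces the axoneme's repeats, had 2.07 and 0.322 FPKM. The radial spoke head gene Rsph4a had 0.841 FPKM. Of the central apparatus, Spag6l had 1.40 FPKM, Cfap54 0.257 FPKM, Spag16 0.0923 FPKM, Hydin 0.0663 FPKM and Spag17 0.0595 FPKM. The tektins, filament proteins within the doublet microtubules, stood at 1.51 FPKM for Tekt1, 0.674 FPKM for Tekt4 and 0.412 FPKM for Tekt2. Of the other axoneme genes, Cfap44 had 0.780 FPKM, Ak7, an adenylate kinase, 0.603 FPKM, Cfap65 0.474 FPKM and Cfap43 0.359 FPKM. The remaining genes with ependymal expression were Ccdc153 at 2.36 FPKM, Rarres2, which encodes the secreted chemoattractant chemerin, at 1.67 FPKM, Pifo at 0.615 FPKM and Mlf1 at 0.519 FPKM. Foxj1, Ccdc153 and Tmem212, taken as ependymal markers, were detected in every library except Tmem212, which had 0 counts in CSDS 3. They belong to the set itself, so their detection describes it and is no independent check of its label.

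For many of the cilia genes the extreme value lay in 1 of 2 libraries, CSDS 3 or SSDS-shACOT12 2. CSDS 3 was the lowest of the 12 libraries for 15 of the 32 genes and the highest for none, while it was the lowest for 4.59% of all genes tested. Control 3 was the lowest for 6 of the 32, against 10% of all genes tested. SSDS-shACOT12 2 was the highest for 14 of the 32 and the lowest for none, while it was the highest for 8.35% of all genes tested. The mean over the 32 genes of log2 CPM minus each gene's own mean was -1.11 in CSDS 3 and 0.62 in SSDS-shACOT12 2. It was -0.34 in SSDS-GFP 3, -0.34 in Control 3 and -0.21 in CSDS 1, and lay between 0.07 and 0.32 in the other 7 libraries. In each of the 4 groups this mean was highest in replicate 2 and lowest in replicate 3. What libraries of 1 number share is not stated, and the part of the replicate number in this order was not tested. With the replicate number as a block, no call among the 32 changed, and the median log2 fold changes were -0.35 for CSDS against Control, 0.26 for SSDS-shACOT12 against SSDS-GFP and 0.14 for SSDS-GFP against Control. In bulk tissue, fewer ependymal cells and less RNA per cell cannot be told apart.

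**Figure D1:**
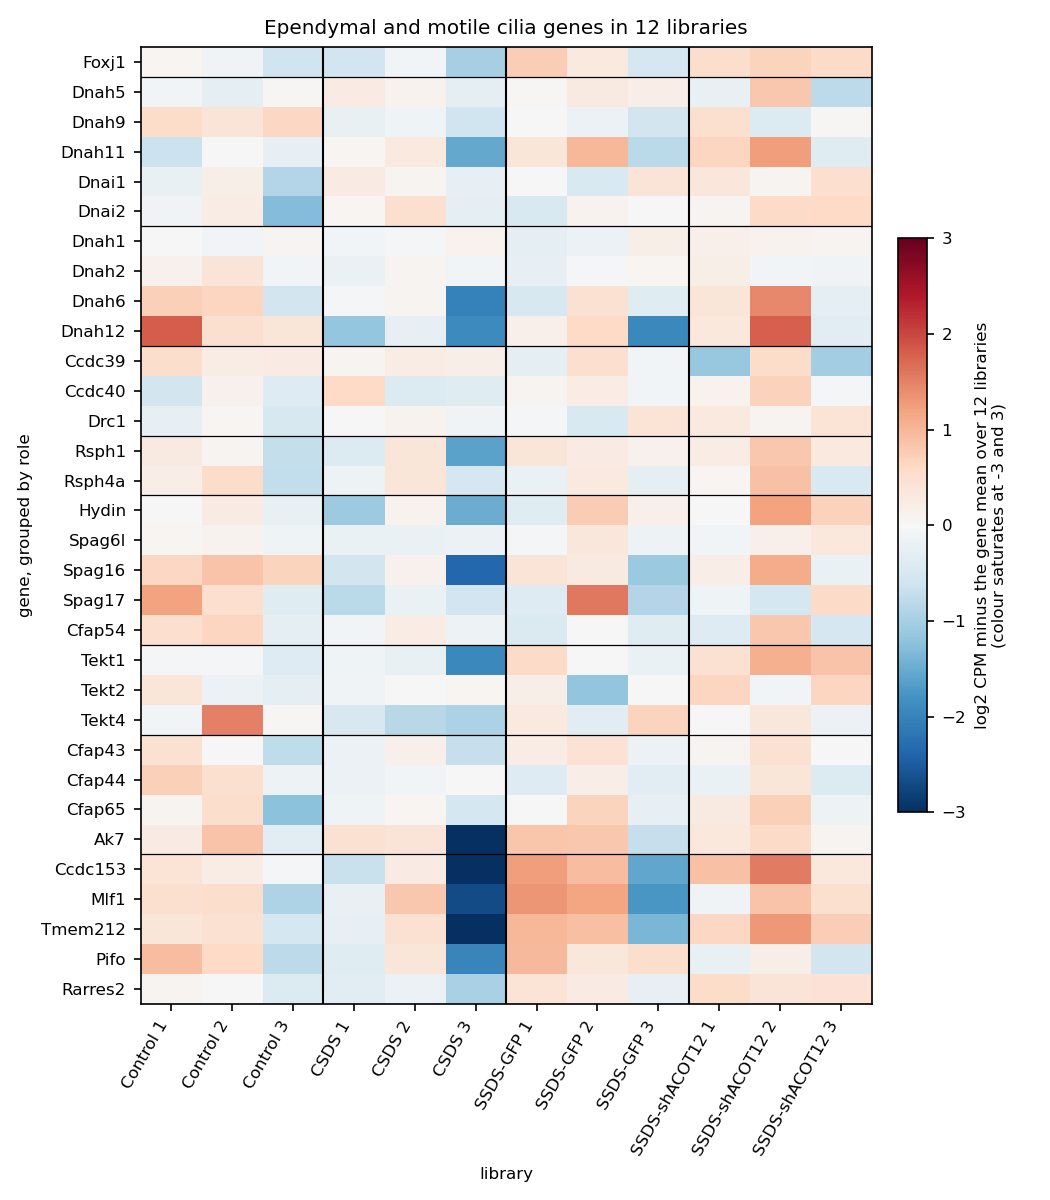
Log2 CPM of each of the 32 genes minus that gene's mean over 12 libraries, with genes as rows grouped by role and libraries as columns grouped by treatment; the colour stops at -3 and 3. CSDS 3 holds the lowest value of 15 genes and SSDS-shACOT12 2 the highest value of 14.

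The low level in CSDS 3 was not shared by all the cilia genes. Of the 32, 11 stood under 25% of their mean over the 10 libraries other than CSDS 3 and SSDS-GFP 3, which was true of 0.562% of all genes tested. Another 11 (34.4%) stood above 75% of that mean, where 92.0% of all genes tested did. These libraries were singled out after their values were seen, and the numbers are a description of them.

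The lowest genes in CSDS 3 came from several roles. Tmem212 had 0 counts in CSDS 3, at least 13.1-fold below its mean of 2.36 CPM in the 10 libraries, with the floor set at 3 counts in that library. Mlf1 also had 0 counts, at least 5.91-fold below, and so did Spag16 of the central apparatus, at least 4.08-fold below. Ccdc153 had 3 counts, 3.19% of its mean in the 10 libraries (0.181 CPM, 95% Poisson interval 0.0374 to 0.529, against 5.68 CPM). Ak7 had 1 count, 2.05% of that mean (0.0604 CPM, interval 0.00153 to 0.336, against 2.95 CPM). Dnah12 and Pifo had 1 count each, Dnah11 had 2, Dnah6 had 4 and Hydin had 5. Tekt1 had 8 counts, 17.7% of its mean in the 10 libraries. The intervals cover counting error only.

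Other axoneme genes in the same library were close to their usual level. Dnah1 stood at 110% of its mean in the 10 libraries, with 146 counts. Ccdc39 stood at 106%, Tekt2 at 98.2%, Dnah2 at 93.6%, Cfap44 at 93.1%, Drc1 at 92.8% and Spag6l at 85.3%. The value of Ccdc39 is uncertain, because it shares exon sequence with Ttc14 on the opposite strand, as described below. Foxj1 itself lay between both sets at 41.98%, with 58 counts, and Rsph1 at 26.9%, with 23 counts. The 32 genes therefore did not scale by 1 common factor in CSDS 3.

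In SSDS-GFP 3, 5 of the 32 genes stood under 25% of their mean in the 10 libraries, against 0.698% of all genes tested, and all 5 were also under 25% in CSDS 3. Of the others that were low in CSDS 3, 6 were not under 25% here: Pifo stood at 123%, Hydin at 92.3%, Tekt1 at 69.1%, Dnah6 at 57.8%, Ak7 at 42.7% and Dnah11 at 36.2%. The 5 low genes were Dnah12 at 5.94%, Mlf1 at 10.7%, Ccdc153 at 20.1%, Tmem212 at 21.8% and Spag16 at 23.2%. In that library Tekt4, which had 39.9% in CSDS 3, stood at 146%, Drc1 at 133% and Dnai1 at 129%.

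The spread between libraries of 1 group was accordingly wide. The dispersion of 21 of the 32 genes (65.6%) lay above edgeR's trend for genes of the same level, against 29.8% of all genes tested. The median within-group SD of log2 CPM was 0.53 for the 32 genes and 0.26 for all genes. The biological coefficient of variation, the square root of the dispersion, was 2.38 times the trend for Ccdc153, 2.18 times for Mlf1, 2.13 times for Tmem212 and 1.99 times for Ak7. It was 0.636 times the trend for Dnah1, 0.637 times for Dnah2 and 0.661 times for Spag6l. CSDS 3 itself enters this spread: the widest was that of genes nearly absent there, and the narrowest that of axoneme genes at 85.3% to 110% of their mean in the 10 libraries.

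**Figure D2:**
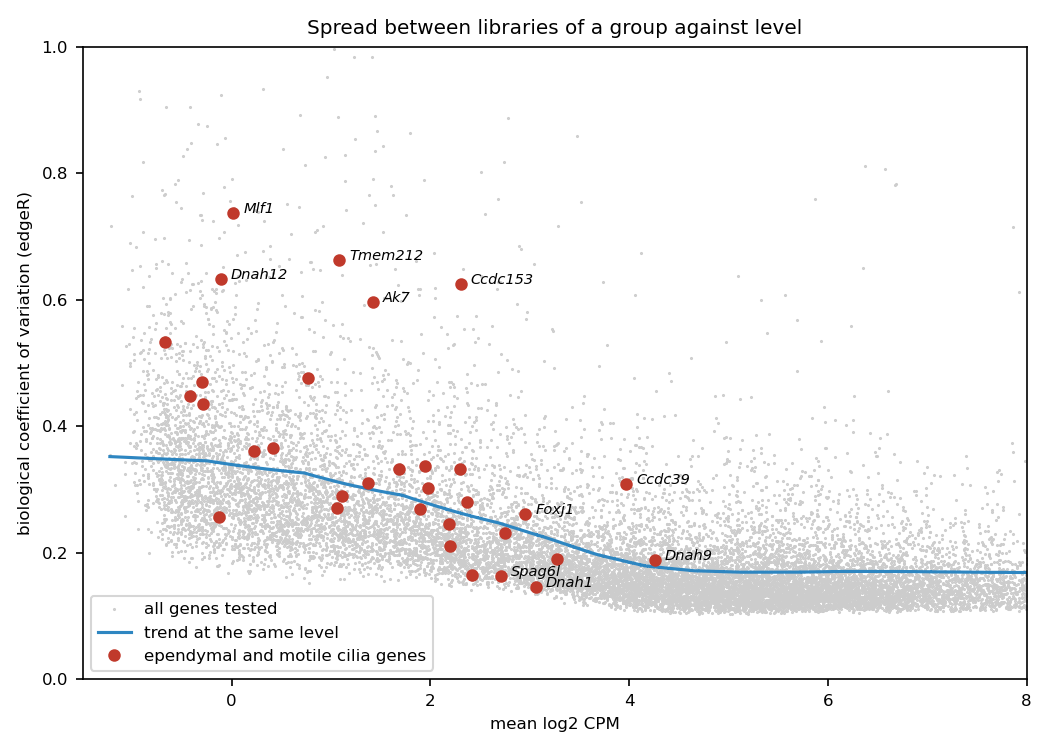
Biological coefficient of variation against mean log2 CPM for the genes tested (grey), with edgeR's trend (blue line) and the 32 ependymal and motile cilia genes (red); genes beyond the axes are not drawn. Of the 32 genes 21 lie above the trend, Ccdc153, Mlf1, Tmem212 and Ak7 farthest, while Dnah1 and Spag6l lie below it.

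The comparison of CSDS with Control asks which genes differ in the ventral hippocampus after this stress. None of the 32 cilia genes passed an adjusted p of 0.05 by edgeR's quasi-likelihood test, and none of all genes tested did (0%). DESeq2's Wald test and limma-trend on FPKM also called 0 of the 32. The smallest adjusted p among the 32 was 0.849. The estimated level was lower in CSDS for 26 and higher for 6 of them, with a median log2 fold change of -0.32, against 0.00 for all genes. Without CSDS 3 it was lower for 19 and higher for 13, with a median of -0.09. Of the 32, 0 were higher and 4 were lower at an unadjusted p under 0.05, where all genes gave 2.86% higher and 3.01% lower. The 3 CSDS libraries lay below all 3 Control libraries for 5 genes, Dnah9, Dnah12, Spag6l, Spag16 and Tekt4, and above them for none. For all genes tested those shares were 10.1% below and 10.2% above. Without CSDS 3, 2 of the 32 were lower at an unadjusted p under 0.05.

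Dnah9, a heavy chain of the outer dynein arm, had the smallest unadjusted p of the 32 in this comparison. It stood at 27.0, 23.8 and 28.1 CPM in Control 1, 2 and 3 and at 15.7, 16.8 and 12.0 CPM in CSDS 1, 2 and 3. The groups did not overlap, and Control 3, where 25 of the 32 genes lay under their own mean, had the highest Dnah9 of all libraries. The mean was 26.3 ± 2.25 CPM in Control and 14.8 ± 2.503 CPM in CSDS (SD, n = 3 each). The log2 fold change was -0.82 ± 0.22 (SE), with an unadjusted p of 0.00207 and an adjusted p of 0.849 by edgeR over all genes. Among the other settings tried, Dnah9 passed with the 6 libraries of this comparison alone (edgeR adjusted p = 0.0314) and without a filter on low counts (edgeR adjusted p = 0.0128), and did not pass under the others, over which the adjusted p reached 1.0. Over all genes, the settings in which it passed gave 84 and 132 calls, in that order, against 0 as reported. The fold change of Dnah9 without CSDS 3 was -0.69.

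Dnah9 in the SSDS groups stood at 17.98, 16.2 and 12.5 CPM in SSDS-GFP and at 25.6, 13.7 and 18.8 CPM in SSDS-shACOT12. All 3 SSDS-GFP libraries lay below the Control range, and SSDS-shACOT12 1 reached it. Against the same Control libraries, SSDS-GFP had a log2 fold change of -0.76 ± 0.22 (SE; edgeR adjusted p = 0.142). That comparison passed with DESeq2's Wald test (adjusted p = 0.039) and without a filter in edgeR (adjusted p = 0.0119), and in the other settings the adjusted p was up to 0.443. Over all genes, DESeq2 gave 527 calls in that comparison and edgeR without a filter 608, against 16 as reported. Both differences of Dnah9 rest on the same 3 Control libraries. A transcript on the opposite strand, Gm12296, shares 495 bases of exon with Dnah9 and had at most 0.297 CPM in any library.

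Dnah12, an inner arm heavy chain, had the lowest estimate in this comparison. It stood at 2.32, 0.844 and 0.773 CPM in Control and at 0.188, 0.464 and 0.0604 CPM in CSDS, the last being 1 count. All CSDS libraries were below all Control libraries, and Control 1 was the highest of the 12 libraries. The log2 fold change was -2.41 ± 0.90 (SE; edgeR adjusted p = 0.849). Without a filter on low counts it passed (edgeR adjusted p = 0.0346), and in the other settings the adjusted p was up to 1.0. The fit without that filter called 132 of all genes.

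Tekt4 stood at 0.862, 2.86 and 0.952 CPM in Control and at 0.626, 0.464 and 0.423 CPM in CSDS, where its log2 fold change was -1.61 ± 0.51 (SE). Control 2 stood apart from the other Control libraries, and without it the fold change was -0.83. Spag16, a protein of the central apparatus, stood at 0.862, 1.04 and 0.892 CPM in Control and at 0.313, 0.581 and 0 CPM in CSDS, where its log2 fold change was -1.61 ± 0.74 (SE). Without CSDS 3 its fold change was -1.03. Both genes had an edgeR adjusted p of 0.849. At the other end, the outer arm intermediate chain Dnai2 had the highest estimate, 0.41 ± 0.39 (SE; edgeR adjusted p = 0.931). It stood at 1.79, 2.27 and 0.714 CPM in Control and at 2.00, 2.73 and 1.57 CPM in CSDS, and the groups overlapped.

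**Figure D3:**
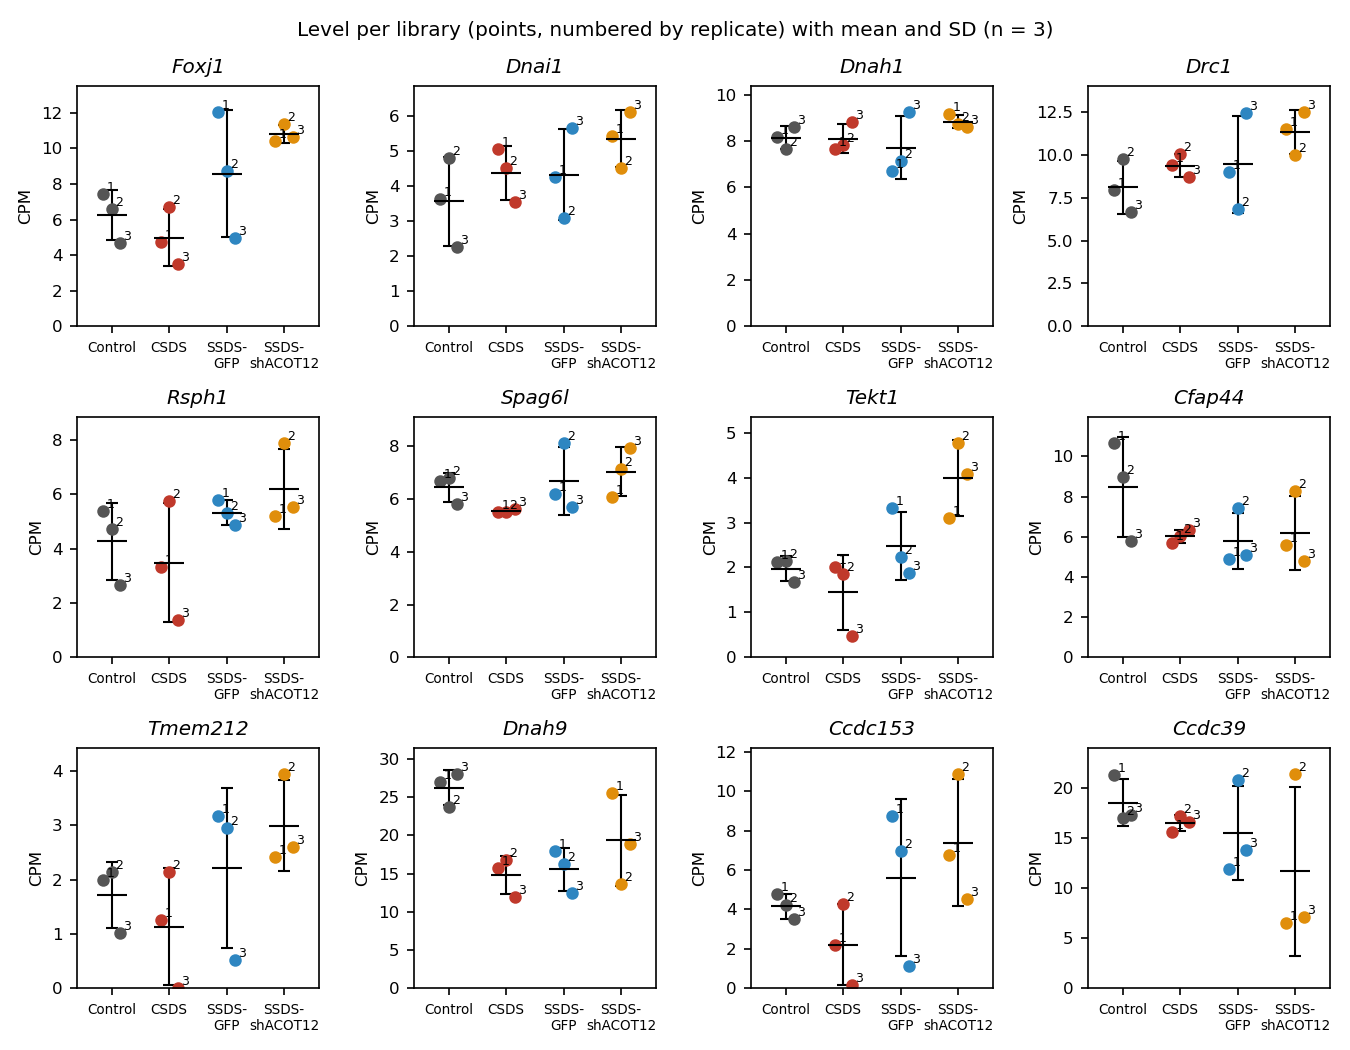
CPM of 12 genes per library (points numbered by replicate) with the group mean and SD (n = 3), from 0 on each vertical axis. Dnah9 in the CSDS libraries lies below all Control libraries, and Tmem212 and Ccdc153 lie near 0 in CSDS 3.

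Foxj1 stood at 7.43, 6.62 and 4.70 CPM in Control, at 4.76, 6.68 and 3.50 CPM in CSDS, at 12.1, 8.73 and 4.98 CPM in SSDS-GFP and at 10.4, 11.4 and 10.7 CPM in SSDS-shACOT12. The SSDS-shACOT12 libraries lay close together, and the range of the SSDS-GFP libraries enclosed them. The log2 fold change was -0.32 ± 0.31 for CSDS against Control, 0.34 ± 0.30 for SSDS-shACOT12 against SSDS-GFP and 0.45 ± 0.31 for SSDS-GFP against Control (SE). None passed, with edgeR adjusted p of 0.932, 0.803 and 0.504.

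The radial spoke gene Rsph1 stood at 5.37, 4.74 and 2.68 CPM in Control, at 3.32, 5.75 and 1.39 CPM in CSDS, at 5.78, 5.32 and 4.86 CPM in SSDS-GFP and at 5.20, 7.89 and 5.51 CPM in SSDS-shACOT12. CSDS 3 was the lowest and SSDS-shACOT12 2 the highest, as for the set. Its log2 fold change for CSDS against Control was -0.28 ± 0.41 (SE), and 0.10 without CSDS 3. Tekt1 stood at 2.12, 2.14 and 1.67 CPM in Control, at 2.00, 1.86 and 0.483 CPM in CSDS, at 3.32, 2.23 and 1.89 CPM in SSDS-GFP and at 3.09, 4.77 and 4.09 CPM in SSDS-shACOT12. Its highest libraries were SSDS-shACOT12 2 and 3. Tmem212 stood at 1.99, 2.14 and 1.01 CPM in Control, at 1.25, 2.15 and 0 CPM in CSDS, at 3.18, 2.95 and 0.515 CPM in SSDS-GFP and at 2.41, 3.95 and 2.60 CPM in SSDS-shACOT12. Each of its groups but SSDS-shACOT12 had replicate 3 well under the others.

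Dnah1 stood at 8.16, 7.66 and 8.62 CPM in Control, at 7.64, 7.84 and 8.81 CPM in CSDS, at 6.71, 7.15 and 9.26 CPM in SSDS-GFP and at 9.15, 8.72 and 8.61 CPM in SSDS-shACOT12. It varied little, and its log2 fold change for CSDS against Control was -0.01 ± 0.17 (SE). Spag6l stood at 6.70, 6.81 and 5.83 CPM in Control and at 5.51, 5.52 and 5.61 CPM in CSDS. It stood at 6.21, 8.14 and 5.72 CPM in SSDS-GFP and at 6.06, 7.13 and 7.93 CPM in SSDS-shACOT12. The CSDS libraries lay under all Control libraries by a small margin, with a log2 fold change of -0.22 ± 0.19 (SE).

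Drc1 stood at 7.96, 9.73 and 6.66 CPM in Control, at 9.39, 10.0 and 8.69 CPM in CSDS, at 9.02, 6.83 and 12.5 CPM in SSDS-GFP and at 11.5, 10.0 and 12.5 CPM in SSDS-shACOT12. Dnai1 stood at 3.65, 4.80 and 2.26 CPM in Control, at 5.07, 4.53 and 3.56 CPM in CSDS, at 4.26, 3.08 and 5.66 CPM in SSDS-GFP and at 5.44, 4.52 and 6.13 CPM in SSDS-shACOT12. In both genes SSDS-GFP 3 was the highest library of its group, the opposite of Tmem212. Cfap44 stood at 10.7, 8.96 and 5.77 CPM in Control, at 5.70, 6.04 and 6.34 CPM in CSDS, at 4.91, 7.42 and 5.09 CPM in SSDS-GFP and at 5.57, 8.28 and 4.77 CPM in SSDS-shACOT12. Control 1 was its highest library and the groups overlapped in each comparison. For CSDS against Control the log2 fold changes were 0.21 ± 0.22 for Drc1, 0.30 ± 0.30 for Dnai1, -0.49 ± 0.27 for Cfap44, -0.44 ± 0.42 for Tekt1 and -0.58 ± 0.81 for Tmem212 (SE), and none passed.

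The comparison of SSDS-shACOT12 with SSDS-GFP asks which genes differ with the hepatic knockdown among mice given the same stress. None of the 32 genes passed edgeR's test, and 0% of all genes did. DESeq2 and limma-trend also called 0 of the 32. The smallest adjusted p among the 32 was 0.803. The estimated level was higher in SSDS-shACOT12 for 25 and lower for 7, with a median log2 fold change of 0.28, against 0.01 for all genes. Without SSDS-shACOT12 2 it was higher for 18 and lower for 14, with a median of 0.03. Without SSDS-GFP 3 it was higher for 20 and lower for 12, with a median of 0.12. At an unadjusted p under 0.05, 0 were higher and 0 lower, where all genes gave 1.84% higher and 2.68% lower. The groups did not overlap for 1 gene, Pifo, which was lower in SSDS-shACOT12. The shares of all genes tested were 2.58% lower and 2.23% higher.

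Dnah12 had the highest estimate in this comparison. It stood at 0.650, 0.919 and 0.0572 CPM in SSDS-GFP and at 0.742, 2.29 and 0.434 CPM in SSDS-shACOT12, a log2 fold change of 1.11 ± 0.82 (SE; edgeR adjusted p = 0.803). SSDS-GFP 3 was its lowest library, at 1 count as in CSDS 3, and SSDS-shACOT12 2 the second highest of all 12. Without SSDS-shACOT12 2 the fold change was 0.14, and without SSDS-GFP 3 it was 0.55. Pifo, a protein of the ciliary base, had the lowest estimate, -0.92 ± 0.64 (SE; edgeR adjusted p = 0.803). It stood at 1.30, 0.788 and 0.915 CPM in SSDS-GFP and at 0.495, 0.700 and 0.372 CPM in SSDS-shACOT12. The log2 fold changes of the others described above were 0.22 ± 0.39 for Rsph1, 0.69 ± 0.40 for Tekt1, 0.45 ± 0.76 for Tmem212, 0.19 ± 0.17 for Dnah1, 0.07 ± 0.19 for Spag6l, 0.26 ± 0.22 for Drc1, 0.30 ± 0.30 for Dnai1 and 0.10 ± 0.27 for Cfap44 (SE).

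Ccdc39 was the 1 cilia gene that passed in this comparison when a library was left out. It stood at 11.9, 20.8 and 13.8 CPM in SSDS-GFP and at 6.56, 21.4 and 7.06 CPM in SSDS-shACOT12. SSDS-shACOT12 1 and 3 were the lowest of the 12 libraries, and SSDS-shACOT12 2 was the highest. The log2 fold change was -0.41 ± 0.36 (SE; edgeR adjusted p = 0.803), and without SSDS-shACOT12 2 it was -1.20 (edgeR adjusted p = 0.0165). The fit without that library called 985 of all genes, where it called 1 of the 32. In the other settings its adjusted p was up to 1.0. Ccdc39 shares 1256 bases, 16.9% of its exon sequence, with Ttc14 on the opposite strand. Ttc14 stood at 56.6, 121 and 62.2 CPM in SSDS-GFP and at 42.9, 104 and 40.4 CPM in SSDS-shACOT12, with its lowest values in the same 2 libraries as Ccdc39. Whether the libraries were stranded, and how strand was set in counting, is not stated. The part of Ttc14 reads in the counts of Ccdc39 was not tested, and the values of Ccdc39 are uncertain. Rarres2 shares 33.6% of its exon sequence with Lrrc61 and Spag17 shares 9.66% with Wdr3, and both are uncertain for the same reason. Tekt2 shares 20.8% with Gm12945, which had at most 0.0656 CPM in any library. Smaller overlaps on the opposite strand included those of Dnai1 with Enho (0.54%, Enho mean 45.2 CPM) and Dnah11 with Cdca7l (4.44%, Cdca7l mean 1.04 CPM). Enho, like Dnai1, was highest of the SSDS-GFP libraries in SSDS-GFP 3. The part of these genes' reads in the counts of Dnai1 and Dnah11 was not tested either. In GENCODE M21, Cfap43 shares 164 bases (2.32%) with Itprip on the same strand, and the count table lacks that Itprip entry. The count table gives Cfap43 9955 bases, against 7059 exon bases in GENCODE M21, so its values are uncertain too.

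The comparison of SSDS-GFP with Control differs in both the stress and the vector, which cannot be told apart. None of the 32 genes passed edgeR's test, where 0.0946% of all genes did. DESeq2 called 1 of the 32, Dnah9, where it called 527 of 16915 genes, and limma-trend called 0 of the 32. In edgeR the smallest adjusted p was 0.142, that of Dnah9. The estimated level was higher in SSDS-GFP for 19 and lower for 13, with a median log2 fold change of 0.20, against 0.01 for all genes. Without Control 3 it was higher for 13 and lower for 19, with a median of -0.10, so 1 library set the direction. Without SSDS-GFP 1 or SSDS-GFP 2 the median was 0.03 or 0.02. At an unadjusted p under 0.05, 0 were higher and 1 was lower, where all genes gave 8.92% higher and 6.23% lower. SSDS-GFP lay below Control without overlap for Dnah9 and Spag16 and above it for none. For all genes those shares were 11.4% below and 12.5% above.

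The highest estimate in SSDS-GFP against Control was that of Dnah11, 0.75 ± 0.68 (SE; edgeR adjusted p = 0.625). It stood at 0.332, 0.584 and 0.476 CPM in Control and at 0.794, 1.31 and 0.286 CPM in SSDS-GFP, and without SSDS-GFP 2 the fold change was 0.18. The lowest was that of Dnah12, -1.29 ± 0.81 (SE; edgeR adjusted p = 0.466). The log2 fold changes of the others described above were 0.32 ± 0.40 for Rsph1, 0.32 ± 0.41 for Tekt1, 0.36 ± 0.78 for Tmem212, -0.08 ± 0.17 for Dnah1, 0.05 ± 0.19 for Spag6l, 0.22 ± 0.22 for Drc1, 0.29 ± 0.30 for Dnai1 and -0.54 ± 0.27 for Cfap44 (SE).

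**Figure D4:**
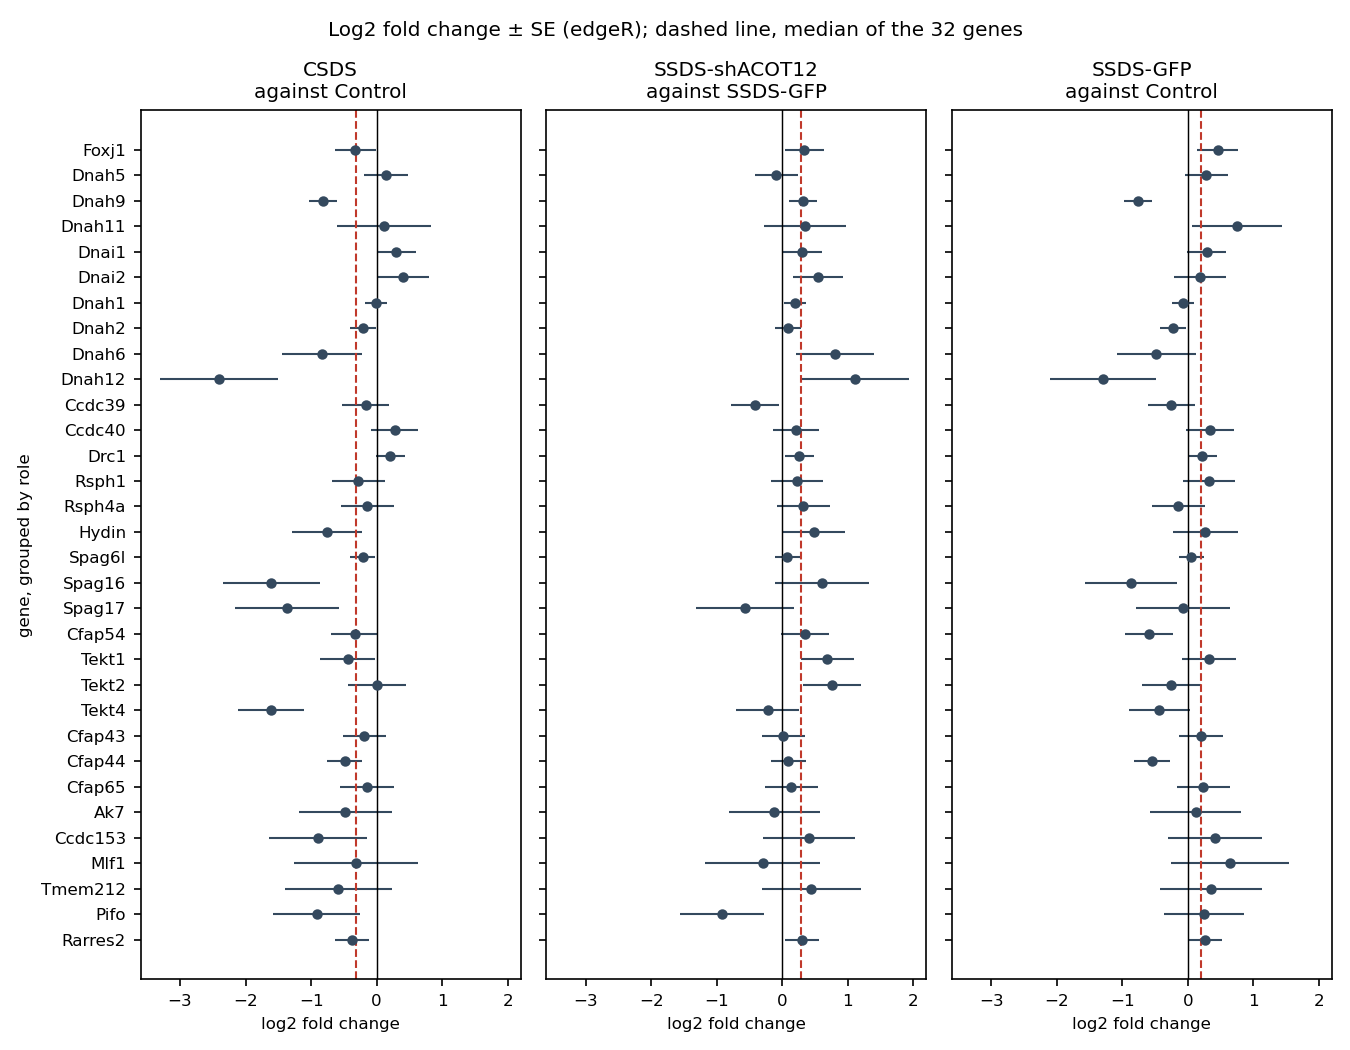
Log2 fold change with its SE from edgeR for each of the 32 genes in the 3 comparisons, with the median of the 32 as a dashed line. The medians are -0.32, 0.28 and 0.20, and no gene passed an adjusted p of 0.05; SSDS-GFP and Control are each used in 2 of the panels.

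Other genes of cilia were described from lists. Of 101 other motile axoneme and dynein assembly genes, 84 were tested. CSDS 3 was the lowest library for 18 of the 84, Control 3 for 16 and SSDS-GFP 3 for 12. Of all genes tested, 4.59%, 10% and 6.59% were lowest there, in that order. SSDS-shACOT12 2 was the highest for 31, against 8.35% of all genes tested. The mean centred log2 level of the 99 in the table was -0.47 in CSDS 3 and 0.46 in SSDS-shACOT12 2, the lowest and highest of the 12 libraries. For CSDS against Control 35 were higher and 49 lower (median -0.09), for SSDS-shACOT12 against SSDS-GFP 56 were higher and 28 lower (median 0.12), and for SSDS-GFP against Control 54 were higher and 30 lower (median 0.14). None passed edgeR's test. At an unadjusted p under 0.05, 1 was higher and 2 lower in the CSDS comparison, 2 higher and 0 lower for SSDS-shACOT12, and 6 higher and 0 lower for SSDS-GFP. The shares of all genes at this threshold were, in the same order, 2.86% higher and 3.01% lower, 1.84% and 2.68%, and 8.92% and 6.23%, and these stand as the background of the other lists too. Dnal1, a dynein light chain, had the highest mean of these genes at 108 CPM.

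Genes of intraflagellar transport and the primary cilium did not follow that order. All 46 were tested, and their mean centred log2 level stayed between -0.05 and 0.06 in the 12 libraries. CSDS 3 was the lowest library for 2 of the 46 and SSDS-shACOT12 2 the highest for 4. Kifap3, which belongs to the kinesin motor of intraflagellar transport, had the highest mean at 280 CPM. For CSDS against Control 21 were higher and 25 lower (median -0.01), for SSDS-shACOT12 against SSDS-GFP 23 were higher and 23 lower (median 0.00), and for SSDS-GFP against Control 28 were higher and 18 lower (median 0.04). None passed edgeR's test, and at an unadjusted p under 0.05 the counts were 1 higher and 3 lower, 1 and 0, and 4 and 2, in that order.

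The regulators of motile ciliogenesis other than Foxj1 were mostly RFX and E2F factors and genes of the multiciliated cell programme. Of 16 listed, 14 were tested and none passed edgeR's test. At an unadjusted p under 0.05, 0 were higher and 0 lower in the CSDS comparison, 1 higher and 3 lower for SSDS-shACOT12, and 0 higher and 2 lower for SSDS-GFP. Rfx3, an X-box binding factor, had the highest mean at 93.9 CPM. Its log2 fold change was -0.37 ± 0.24, -0.60 ± 0.24 and -0.57 ± 0.24 (SE) in the same order of comparisons, with edgeR adjusted p of 0.896, 0.803 and 0.282. The medians of the 14 were -0.09, 0.16 and 0.01. Ependymal markers outside the cilium, of which 9 of 10 were tested, also did not pass (unadjusted, 1 higher in CSDS and 2 higher and 1 lower in SSDS-GFP). Their summed level of 280 to 1027 CPM was mostly Nnat, which neurons express as well, with a mean of 465 CPM. CSDS 3 was the lowest library for 3 of these 9. SSDS-GFP 3, where the cilia genes were low, was the lowest for 0 of them, and the mean centred log2 level of the list was 0.38 there and -0.35 in CSDS 3.

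**Figure D5:**
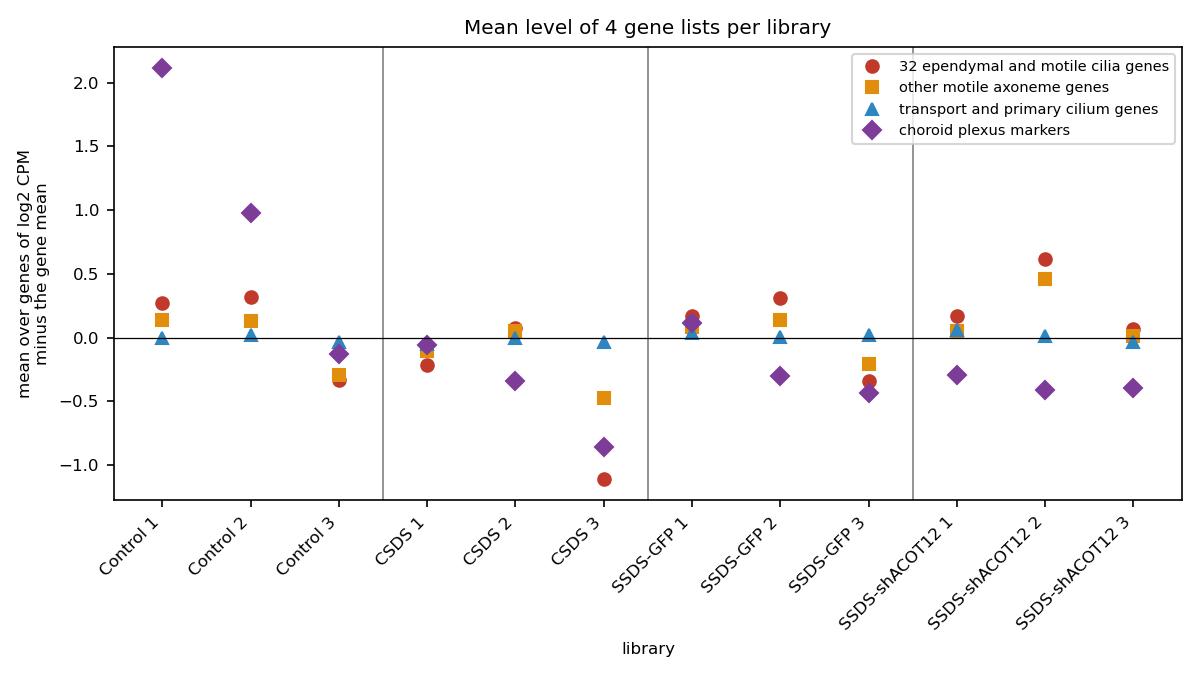
Mean over the genes of 4 lists of log2 CPM minus each gene's mean, per library. The 32 ependymal and motile cilia genes reach -1.11 in CSDS 3 and 0.62 in SSDS-shACOT12 2, the other motile axoneme genes move less in the same libraries, the primary cilium genes stay between -0.05 and 0.06, and the choroid plexus markers reach 2.12 in Control 1.

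The choroid plexus, a secretory epithelium in the ventricle that also carries cilia, was followed by 20 markers, of which 10 were tested. All 10 had a lower estimate in CSDS and in SSDS-GFP than in Control, with medians of -0.93 and -0.71, and none passed. At an unadjusted p under 0.05, 2 of the 10 were lower in CSDS and 2 in SSDS-GFP, with 0 higher, where 3.01% and 6.23% of all genes were lower. The summed level of all 20 was 155 to 854 CPM in Control, 119 to 148 CPM in CSDS, 118 to 195 CPM in SSDS-GFP and 91.3 to 161 CPM in SSDS-shACOT12. Their mean centred log2 level was lowest in CSDS 3, at -0.86. It was -0.43 in SSDS-GFP 3, and nearly as low in SSDS-shACOT12 2 (-0.41) and SSDS-shACOT12 3 (-0.40). CSDS 3 was the lowest library for 4 of the 10 tested. By the mean of centred levels, a low level in CSDS 3 was thus not particular to the cilia genes. The summed level did not show it. It was 131.5 CPM in CSDS 3 and lower in CSDS 2 (118.7 CPM), SSDS-GFP 3 (117.5 CPM) and SSDS-shACOT12 1 and 3 (131.1 and 91.3 CPM). Of the 20 markers, 5 had 0 counts in CSDS 3, as many as in SSDS-GFP 2. Ttr, the transthyretin gene that marks this epithelium, stood at 504, 140.5 and 7.91 CPM in Control, at 3.63, 3.31 and 1.03 CPM in CSDS, at 16.6, 5.12 and 6.23 CPM in SSDS-GFP and at 8.29, 2.16 and 3.10 CPM in SSDS-shACOT12. Control 1 and 2 thus held far more of it than the other 10 libraries. Kcnj13 was at 0 counts in 6 libraries, Otx2 in 5, Slc4a5 in 5, Tmem72 in 4 and Igf2 in 3. Folr1 and Calml4 were at 0 in CSDS 3 alone, and Mfrp and Steap1 in 1 SSDS-GFP library each. SSDS-shACOT12 2, the highest library for the cilia genes, had 2.16 CPM of Ttr. The part of choroid plexus tissue in the differences from Control was not tested.

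The genes outside the 32 whose libraries lay closest to the mean pattern of the 32 were found by the root mean square difference of centred log2 CPM over the 12 libraries. They were Mns1 (0.248), Mycbpap (0.249), Odf3b (0.252), Lrrc23 (0.253), Spag8 (0.259), Gm19935 (0.276), Gm20075 (0.277) and Kif20a (0.278). The median difference over all other genes tested was 0.517, and the mean pattern itself has a root mean square of 0.431. Lrrc23 stood at 1.03 CPM in CSDS 3 and 4.46 CPM in SSDS-shACOT12 2, the lowest and highest of its 12 libraries.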

How the data were processed

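RNA of mouse ventral hippocampus was sequenced in 12 libraries, 3 for each of 4 groups taken from the sample labels. Libraries were made from total RNA. The submitters' processing notes name mm10, HISAT2 2.0.5, featureCounts 1.5.0-p3 and DESeq2; the strand setting and annotation release are not given in the sources used here. Counts were deposited as unscaled whole numbers of reads per gene. The deposited FPKM values are scaled by the authors by gene length and library size. Gene length in bases, a unit other than expression, is given per the file headers.

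Genes were filtered with filterByExpr (minimum count 10, minimum total 15) of edgeR 4.0.16 in R 4.3.3, and libraries were scaled by TMM. All 12 libraries entered 1 quasi-likelihood model whose sole term was the group, and contrasts were tested 2-sided with Benjamini-Hochberg adjustment over 16915 genes at 0.05. Adjusted p-values in the text are from this test unless DESeq2 1.42.0 or limma 3.58.1 is named. Centred log2 CPM used a prior count of 2. The tests were tried on simulated data. Alternatives were DESeq2 size factors, the DESeq2 Wald test, all genes with a count, genes with at least 50 counts in 3 libraries, a fit of just the 6 libraries of a contrast, a block for the replicate number, leaving out each library, and limma-trend on log2(FPKM + 0.1) or log2(FPKM + 1).

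The 32 genes and the lists were chosen with earlier results of these data known. Values for every library are given for the gene with the highest FPKM in each role, Foxj1, the highest and lowest fold change in each contrast, genes that passed, and Ttr; from other lists the genes of highest mean are named. Dnah9, Spag16, Tekt4, Ccdc39 and the genes described in CSDS 3 and SSDS-GFP 3 were named after their values were seen. Of the 32 genes, 28 have the same coordinates in GENCODE M21, which was used for exon overlaps. What libraries of 1 replicate number share is not stated in the labels. Deviations from the group means of same-numbered SSDS-GFP and SSDS-shACOT12 libraries correlated at 0.196, 0.419 and 0.353, all over the bound of 0.1. The block for the replicate number, shared by all groups, was the sole fit that took the numbers into account. Same-numbered CSDS and Control libraries correlated at -0.005, -0.013 and 0.047. For SSDS-GFP and Control the correlations were -0.0625, -0.259 and -0.213, so a shared block does not describe all groups alike.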

Additional observations from a re-analysis of the deposited data

How the results depend on the processing

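Among all genes, CSDS against Control gave 132 calls without a filter on low counts, 84 with the 6 libraries alone, 6 with DESeq2's Wald test, and 0 to 1 with each library left out, against 0 in edgeR's test as reported. SSDS-shACOT12 against SSDS-GFP gave 108 calls without a filter and 0 to 985 with each library left out, the most without SSDS-shACOT12 2, against 0. SSDS-GFP against Control gave 608 without a filter, 34 with the 6 libraries alone, 527 with DESeq2, 9 with the replicate block and 4 to 15 with each library left out, against 16. Of the 32 cilia genes, 2 were called for CSDS without a filter and 1 with the 6 libraries alone, 1 was called for SSDS-GFP against Control without a filter and 1 with DESeq2, and 0 to 1 for SSDS-shACOT12 with each library left out. The replicate block, a term shared by all 12 libraries, changed no call among the 32 in any comparison. A paired fit of SSDS-shACOT12 and SSDS-GFP alone was not run. Of 506 alternatives of 37 reported fold changes, 487 kept their sign and their side of the threshold, 5 passed it, and 14, each with a library left out, changed sign. For CSDS the leave-one-out ranges were -0.066 to 0.042 for Dnah1, -0.85 to 0.10 for Rsph1 and -1.45 to 0.0053 for Tmem212. For SSDS-shACOT12 they were -0.18 to 0.31 for Cfap44, -0.032 to 0.24 for Spag6l and -0.040 to 0.80 for Tmem212. For SSDS-GFP against Control they were -0.030 to 0.41 for Drc1, -0.11 to 0.16 for Spag6l and -0.0065 to 0.85 for Tmem212. The stricter filter left 19 of the 32 genes in the test. The cause of the other changes was not tested. Depth limits the genes with a mean under 1 CPM, such as Spag16, which had 119 counts over the 12 libraries.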
